A study of Mus musculus with 5 samples.

Results

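The circadian clock genes of muscle stem cells are described here in dystrophic and healthy mice. The set holds 10 genes, chosen by name (Per1, Per2, Per3, Cry1, Cry2, Clock, Arntl, Nr1d1, Nr1d2 and Dbp), out of 22683 genes in the deposited table, and all 10 were found. The cells were labelled as quiescent satellite cells, the resting stem cells of skeletal muscle, and were purified by fluorescence-activated sorting. Libraries of mdx mice (3 libraries), whose dystrophin gene Dmd is mutated and which serve as a model of Duchenne muscular dystrophy, were set against libraries of wild-type mice (2 libraries). Every library was made from total RNA of between 10000 and 20000 sorted cells. The sources used here do not give sex, age, strain, muscle, sorting gate or hour of collection, nor do they state whether each library is a separate animal. P-values therefore reflect only how far these libraries scatter, and that scatter may be technical.

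The mammalian clock is a feedback loop of transcription. CLOCK and its partner ARNTL (also called BMAL1) bind E-box sequences and switch on the Per and Cry genes, whose proteins return to the nucleus and repress CLOCK and ARNTL. In a second loop, the nuclear receptors encoded by Nr1d1 and Nr1d2 (REV-ERB alpha and beta) repress Arntl, while ROR receptors activate it through the same element. DBP is an output factor that binds D-box sequences and carries the rhythm to further genes. In skeletal muscle the clock is known for timing metabolism and Myod1, and most of these transcripts rise and fall over the day. Since hour of collection may differ between the groups and is not given, hour and genotype cannot be told apart in any value below.

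The promoters of 4 members are shown because they carry the loop's recognition letters or belong to the genes that changed. They are RefSeq sequences of build GRCm38.p6 from 250 bases before to 50 bases after the annotated start, written 5′ to 3′ on the gene's strand. Capitals mark an E-box (CACGTG) or a D-box (TTATGTAA or TTACGTAA), searched on both strands. The Dbp window is chr7:45704997-45705296 on the plus strand, the Cry1 window is chr10:85185005-85185304 on the minus strand, the Per3 window is chr4:151044616-151044915 on the minus strand, and the first Per1 window is chr11:69098699-69098998 on the plus strand.
Dbp: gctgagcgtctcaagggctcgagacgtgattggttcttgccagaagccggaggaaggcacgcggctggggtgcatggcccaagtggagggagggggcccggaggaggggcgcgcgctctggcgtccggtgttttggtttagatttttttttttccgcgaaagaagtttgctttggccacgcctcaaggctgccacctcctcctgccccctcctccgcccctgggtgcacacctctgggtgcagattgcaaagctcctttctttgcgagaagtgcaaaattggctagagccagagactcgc
Cry1: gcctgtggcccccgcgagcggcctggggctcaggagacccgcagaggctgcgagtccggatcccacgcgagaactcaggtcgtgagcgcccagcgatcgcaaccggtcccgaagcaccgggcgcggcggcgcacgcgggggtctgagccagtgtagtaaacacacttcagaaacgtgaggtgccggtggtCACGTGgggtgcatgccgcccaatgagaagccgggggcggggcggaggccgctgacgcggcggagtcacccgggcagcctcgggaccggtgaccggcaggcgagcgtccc
Per3: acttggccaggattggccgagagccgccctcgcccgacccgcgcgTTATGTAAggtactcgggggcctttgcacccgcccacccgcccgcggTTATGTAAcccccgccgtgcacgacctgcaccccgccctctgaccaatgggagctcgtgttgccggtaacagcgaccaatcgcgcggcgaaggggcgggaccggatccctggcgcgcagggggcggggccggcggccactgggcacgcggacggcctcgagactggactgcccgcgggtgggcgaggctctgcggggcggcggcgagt
Per1: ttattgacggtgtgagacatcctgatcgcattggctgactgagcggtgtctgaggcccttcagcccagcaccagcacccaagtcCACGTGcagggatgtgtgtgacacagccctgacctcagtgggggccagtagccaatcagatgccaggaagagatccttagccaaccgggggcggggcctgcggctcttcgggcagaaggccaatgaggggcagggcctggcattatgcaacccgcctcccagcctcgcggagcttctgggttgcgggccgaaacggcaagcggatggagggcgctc

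Promoters were found for 9 of the 10 members, in 13 windows. An E-box was present in 2 of the 9 genes, 60 bases before the start in Cry1 and 166 bases before it in Per1, while 7.15% of all 32851 promoter windows of this length held one. Per3 held 2 copies of the D-box, beginning 205 and 158 bases before its start, and 1.06% of all windows held any. The letters GGGTCA, a form of the core of the ROR element, were searched on both strands. They were in no member's window and in 13.7% of all windows. The form AGGTCA, which occurs for example in the second Arntl window, was not searched, so these counts do not show whether a member lacks the element. A missing match says only that these letters are not in this window.

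Values are the authors' normalized read counts, scaled per library and rounded to whole numbers, and means are given ± SD, with n = 3 for mdx and n = 2 for wild type. Libraries summed to between 12473348 and 15930638 normalized counts in mdx and to 15217054 and 16825045 in wild type, which stand for an estimated 12.8 M to 14.8 M reads in mdx and 17.1 M and 19.6 M reads in wild type. Dmd, the mutated gene, was at 4642, 4116 and 3700 in mdx and at 11826 and 9266 in wild type. Pax7, the transcription factor that defines satellite cells, was at 12767, 9751 and 14989 in mdx and at 9103 and 7644 in wild type. Xist, transcribed from the inactive X chromosome of females, was at 0, 0 and 12 in mdx and at 30235 and 30176 in wild type, and the Y-linked Ddx3y was at 966, 946 and 827 in mdx and at 9 and 0 in wild type, so genotype and sex cannot be told apart either. All 10 endothelial markers rose, and their summed levels ran between 16673 and 22828 in mdx and between 378 and 526 in wild type, with Emcn and Erg at 0 in wild type. Of 10 macrophage markers 9 rose, and the list summed to between 9874 and 13660 in mdx and to between 428 and 596 in wild type, with C1qa, C1qb, C1qc and Itgam at 0 in wild type. Of 10 fibro-adipogenic markers 9 rose, and the list summed to between 95610 and 169570 in mdx and to between 22791 and 34998 in wild type. Of 12 satellite cell markers 3 rose and 7 fell, with sums between 51936 and 72882 in mdx and between 111543 and 122372 in wild type. Pericyte and smooth muscle markers (5 of 8 higher) summed to between 27746 and 34744 in mdx and to between 14872 and 19172 in wild type. Myofiber markers (2 of 8 higher, 6 not called) summed to between 26229 and 66247 in mdx and to between 3069 and 3606 in wild type. Most of the myofiber sums was Ttn, at 37164, 64744 and 23685 in mdx and at 2475 and 2100 in wild type. Lymphocyte markers (0 of 1 tested) summed to between 53 and 117 in mdx and to between 35 and 151 in wild type. Markers of other cell types therefore differed along with every clock gene difference below, and their part in those differences was not tested. In RNA from a sorted population, fewer cells of a type and less RNA per cell cannot be told apart.

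Of the 10 clock genes, Dbp and Cry1 rose in mdx and 8 did not pass the test. That is 2 higher and 0 lower, where 24.9% of the 18199 genes tested in the same fit were called (14.6% higher and 10.3% lower), so the share of clock genes called was close to that of genes at large. The test was limma on log2(normalized count + 2), with Benjamini-Hochberg adjustment across the 18199 genes and a threshold of 0.05. After removal of each library's dependence on transcript length and GC content, 1707 genes were higher and 2149 lower in mdx, beside 2659 and 1868 as reported, and neither Dbp (log2 1.43) nor Cry1 (log2 1.49, beside 1.77 as reported) passed the test. All 10 members passed the filter of at least 10 in at least 2 libraries. At an unadjusted p under 0.05 there were 5 members, against 38.1% of all tested genes. The mdx libraries lay wholly above the wild-type libraries for 4 members (Per3, Cry1, Cry2 and Dbp) and wholly below for 2 (Arntl and Nr1d2), where 28.2% and 23.8% of tested genes did so, or 52% in either direction. Log2 fold changes had a median of 0.48 in the set and of 0.13 in all tested genes. With length and GC correction every member had a lower log2 fold change than reported. It was then below 0 for Per1, Per2, Clock, Arntl and Nr1d2. The median of all genes was −0.09 with this correction, and that of the set was not computed, so the higher set median need not hold. Summed over the set, the level was 11861, 10374 and 10490 in mdx and 10320 and 9622 in wild type, so every mdx sum lay above both wild-type sums, mdx 2 and mdx 3 by little.

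**Figure D1:**
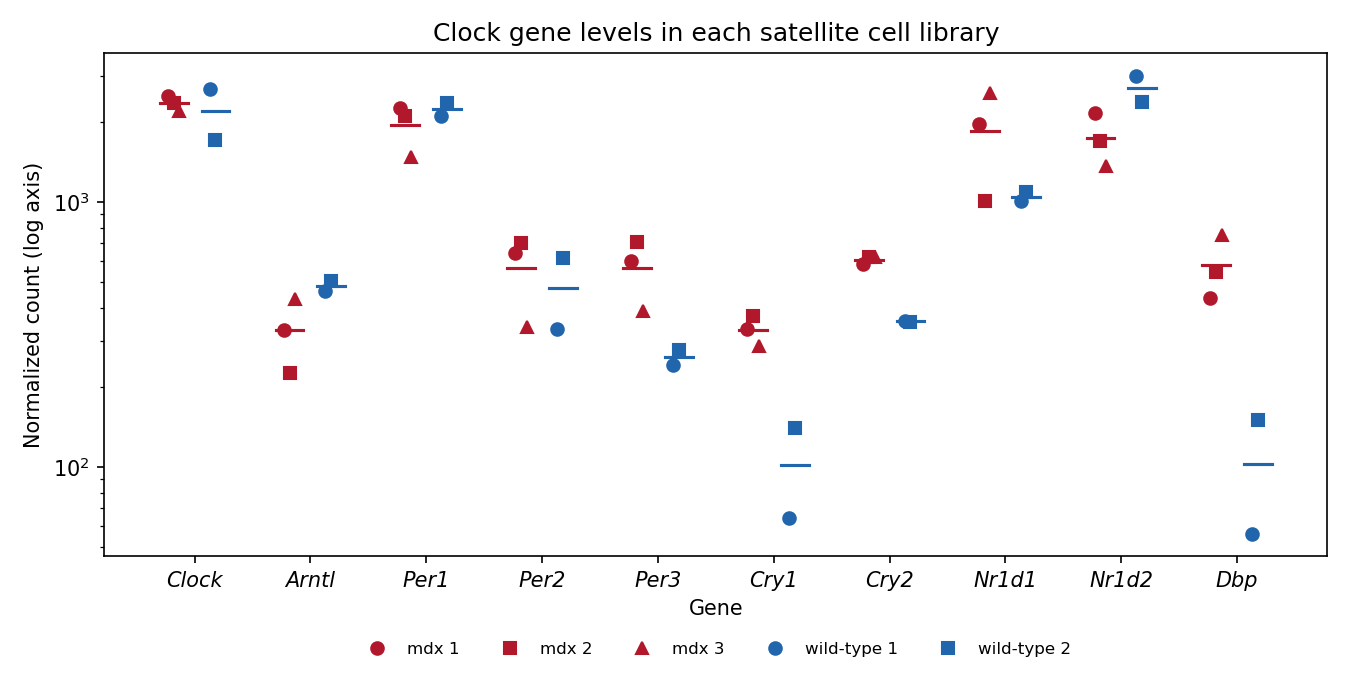
Normalized counts of the 10 clock genes (log axis) in the 3 mdx libraries (red, left of each pair) and the 2 wild-type libraries (blue, right), with marker shapes for the replicate number and bars for group means. Dbp and Cry1 show the widest gap between genotypes, and Nr1d1 the widest spread among mdx libraries, between 1006 and 2596.

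Clock and Arntl encode the activating pair. Clock (chromosome 5, 76209868 to 76304792, minus strand, mm10) was at 2517, 2365 and 2219 in mdx and at 2683 and 1724 in wild type. The mdx values lay inside the wild-type range, and the log2 fold change was 0.14 (95% interval −0.37 to 0.65, limma adjusted p = 0.697). Arntl (chromosome 7, 113207465 to 113314126, plus strand) was at 329, 227 and 430 in mdx and at 462 and 505 in wild type. Every mdx library lay below both wild-type libraries, yet mdx 3 came close to them and mdx 2 stood at less than any other library. Its log2 fold change of −0.60 (SE 0.37, 95% interval −1.45 to 0.25) did not pass (limma adjusted p = 0.271). The interval for Arntl includes no change and a fall to 0.366 of the wild-type level, so these libraries cannot tell those apart. The antisense gene Gm45355 shares 33 exon bases with Arntl and was at 0, 28 and 1 in mdx and at 0 and 0 in wild type. Within Clock lie Gm43658, at 179, 157 and 97 in mdx and 152 and 59 in wild type, and the pseudogene Ube2n-ps1, at 49, 1 and 0 in mdx and 0 and 26 in wild type, each with 0 shared exon bases.

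The Per genes encode the PERIOD repressors. Per1 (chromosome 11, 69095217 to 69109960, plus strand), which also responds within minutes to hormones and stress signals, was at 2269, 2125 and 1483 in mdx and at 2120 and 2365 in wild type. Mdx 1 and mdx 2 lay within or near the wild-type range and mdx 3 below it, with a log2 fold change of −0.22 (95% interval −0.74 to 0.31, limma adjusted p = 0.523). With length and GC correction, the log2 fold change of Per1 was −1.51 and it was called lower (limma adjusted p = 0.00344); its longest transcript has 59.4% GC. Per2 (chromosome 1, 91415982 to 91459324, minus strand) was at 645, 702 and 339 in mdx and at 331 and 615 in wild type, and the genotypes overlapped (log2 fold change 0.25, 95% interval −0.70 to 1.19, limma adjusted p = 0.707). The low libraries were mdx 3 and wild-type 1, and the direction turned to −0.20 without wild-type 1 and to −0.72 with length and GC correction.

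Per3, the period gene whose promoter held the D-boxes shown above, was higher in every mdx library. Per3 (chromosome 4, 151003652 to 151044665, minus strand) was at 597, 706 and 389 in mdx and at 242 and 276 in wild type. The fold was 2.11 (log2 1.08, SE 0.36, 95% interval 0.25 to 1.90) and it did not pass the test (limma adjusted p = 0.0591). Per3 was called with the stricter filter of at least 50 (limma adjusted p = 0.0489), with equal library totals (0.0466) and without wild-type 2 (0.0445). With length and GC correction its log2 fold change was 0.24 (limma adjusted p = 0.669). Per3 lies within Camta1 on the same strand with 0 shared exon bases, and Camta1 was at 204, 276 and 226 in mdx and at 843 and 1583 in wild type, opposite to Per3.

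Cry1 and Cry2 encode the cryptochromes, the stronger repressors of the loop. Cry1 (chromosome 10, 85131700 to 85185064, minus strand) was at 331, 372 and 286 in mdx and at 64 and 140 in wild type. The mdx libraries lay close together, and the lowest of them stood above the higher wild-type library. Cry1 rose 3.41-fold (log2 1.77, SE 0.49, 95% interval 0.65 to 2.88, limma adjusted p = 0.0300). At the estimated worth of a read, the wild-type values stand for about 71.8 and 163 reads, and the mdx values for between 266 and 397. The log2 fold change was 1.22 without wild-type 1 (limma adjusted p = 0.0957) and 2.32 without wild-type 2, where Cry1 stayed called. Elsewhere the fold stayed about as large while the call ended: log2 1.76, 1.68 and 1.87 without mdx 1, 2 and 3 (limma adjusted p = 0.0948, 0.103 and 0.0856), 1.77 without the variance trend (0.0673) and 1.49 with length and GC correction (0.0655).

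Cry2 (chromosome 2, 92403646 to 92434043, minus strand) was at 583, 619 and 619 in mdx and at 356 and 354 in wild type. No other member had such narrow groups: the highest mdx library was 1.06 times the lowest, and in 98.5% of the 4820 tested genes of similar mean level the mdx libraries were spread more widely. Its log2 fold change of 0.77 (SE 0.28, 95% interval 0.13 to 1.41) did not pass (limma adjusted p = 0.0778). Because limma draws each gene's variance toward that of genes of similar level, this SE is not that of Cry2 alone. With length and GC correction the log2 fold change was 0.03 (limma adjusted p = 0.958). An antisense transcript with few counts, D930015M05Rik, shares 295 exon bases with Cry2 and was at 5, 97 and 49 in mdx and at 12 and 5 in wild type.

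Nr1d1 and Nr1d2 encode the REV-ERB repressors of Arntl, and their values went opposite ways. Nr1d1 (chromosome 11, 98767932 to 98775333, minus strand) was at 1975, 1006 and 2596 in mdx and at 1006 and 1095 in wild type. Mdx 2 equalled the lower wild-type library, while mdx 1 and mdx 3 lay far above both. The log2 fold change of 0.72 had an SE of 0.36 and a 95% interval of −0.10 to 1.54 and did not pass (limma adjusted p = 0.179), and it was 0.06 with length and GC correction. Nr1d1 was called without mdx 2 (log2 1.11, limma adjusted p = 0.0394) and without wild-type 2 (0.0396). Among mdx libraries the highest was 2.58 times the lowest, a wider spread than in all but 2.83% of the 2902 tested genes of similar level. Nr1d2 (chromosome 14, 18204054 to 18239127, minus strand) was at 2181, 1706 and 1375 in mdx and at 3000 and 2398 in wild type, with no overlap. Its log2 fold change of −0.64 (SE 0.24, 95% interval −1.18 to −0.10) did not pass (limma adjusted p = 0.0825), and it was called lower without wild-type 2 (limma adjusted p = 0.0222).

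Nr1d1 shares 263 exon bases with Thra, which encodes thyroid hormone receptor alpha and is read from the opposite strand. Thra was at 3211, 2915 and 4399 in mdx and at 1848 and 1107 in wild type (log2 fold change 1.27, limma adjusted p = 0.0095), and it was highest in mdx 3, as Nr1d1 was. Whether the counting used strand is not given, so reads from the shared bases could belong to either gene, and their part in the Nr1d1 values was not tested.

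Dbp, the output factor of the loop, had the highest fold of the set. Dbp (chromosome 7, 45705088 to 45710203, plus strand) was at 434, 546 and 754 in mdx and at 56 and 150 in wild type. All mdx libraries stood far above both wild-type libraries, and mdx 3 was the highest. Dbp rose 6.02-fold (log2 2.59, SE 0.50, 95% interval 1.45 to 3.73, limma adjusted p = 0.00633). The wild-type values stand for about 62.9 and 174 reads, and the wild-type libraries differed from each other 2.68-fold, so the size of the fold rests on which of them is used: the log2 fold change was 1.89 without wild-type 1 and 3.28 without wild-type 2. Dbp was no longer called without mdx 2 (log2 2.61, limma adjusted p = 0.0522), without mdx 3 (log2 2.38, 0.0623) or with length and GC correction (log2 1.43, limma adjusted p = 0.0736); the longest Dbp transcript has 61.6% GC, the highest of the set. Dbp shares 539 exon bases with Sphk2, a sphingosine kinase gene on the opposite strand. Sphk2 was at 242, 484 and 366 in mdx and at 321 and 84 in wild type and did not pass (limma adjusted p = 0.219). Reads from the shared bases could belong to either gene, and their part in the Dbp values was not tested.

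**Figure D2:**
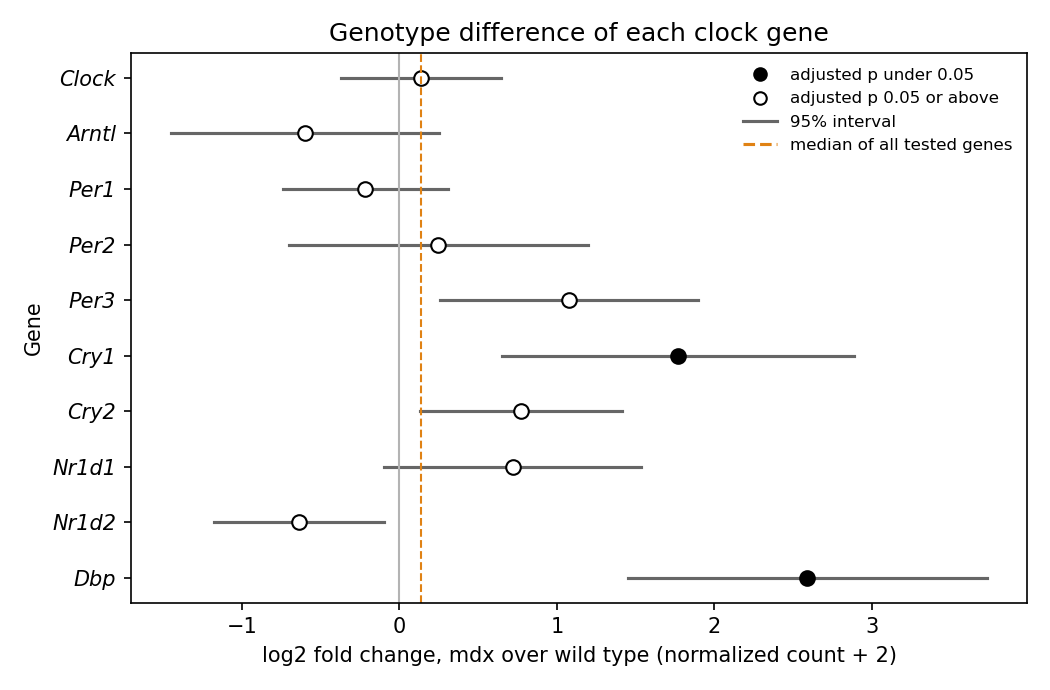
Log2 fold change of each clock gene, mdx over wild type, with 95% intervals from limma; filled points have an adjusted p under 0.05. Only Dbp (2.59) and Cry1 (1.77) are filled, the intervals of Per3, Cry2 and Nr1d2 exclude 0 without passing the adjusted threshold, and the dashed line marks the median of all tested genes (0.13).

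Levels of different genes were compared per kilobase of annotated exon, on the scale of normalized counts per kb. In mdx the order began with Nr1d1 at 604 ± 260, Per1 at 348 ± 74.3 and Nr1d2 at 324 ± 74.9 per kb, and the ranges of these neighbours overlapped. Dbp followed at 193 ± 54.3 per kb and Clock at 172 ± 10.9 per kb, again overlapping. Cry1, Cry2 and Per2 lay together at 98.7 ± 12.9, 96.0 ± 3.29 and 96.0 ± 33.3 per kb, and Per3 (58.7 ± 16.8) and Arntl (43.7 ± 13.5) closed the order without a clear gap between them. In wild type the order was led by Nr1d2 at 499 ± 78.7, Per1 at 398 ± 30.8, Nr1d1 at 341 ± 20.5 and Clock at 161 ± 49.4 per kb, with no overlap between neighbours. Per2 (80.8 ± 34.3) and Arntl (64.3 ± 4.04) overlapped, Cry2 followed at 56.2 ± 0.224, and Dbp, Cry1 and Per3 were at the bottom with 34.4 ± 22.2, 30.5 ± 16.1 and 27.0 ± 2.50 per kb, each overlapping its neighbour. On this scale Dbp stood at rank 4 in mdx and rank 8 in wild type, and Arntl at rank 10 in mdx and rank 6 in wild type. The length used was that of all annotated exons of a gene together, for Arntl 7.523 kb where its longest transcript has 3995 bases. The order of the genes depends on that choice of length.

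A ratio of a clock gene's normalized count to that of Arntl in the same library does not depend on the library's scaling factor. It does keep the library's dependence on transcript length and GC content. The longest Arntl transcript has 48.2% GC, and those of the members run from 40.9% (Clock) to 61.6% (Dbp). No ratio was taken after length and GC correction. Dbp reached 1.32, 2.41 and 1.75 times Arntl in mdx, against 0.121 and 0.297 times in wild type. In mdx libraries Dbp was above Arntl, and in wild-type libraries it was far below. Nr1d1 was 6.003, 4.43 and 6.04 times Arntl in mdx and 2.18 and 2.17 times in wild type, so mdx 2, whose Nr1d1 level equalled wild type, also lay above both wild-type libraries in this ratio. Cry1 was at 1.01, 1.64 and 0.665 times Arntl in mdx and at 0.139 and 0.277 times in wild type. Log2 ratios, and the tests on them, were taken after adding 2 to both counts. On that scale the mdx and wild-type libraries did not overlap for 5 of the 9 ratios (Per3, Cry1, Cry2, Nr1d1 and Dbp), and 8 of 9 were higher in mdx, the exception being Nr1d2 with a difference of −0.04 on the log2 scale. All 9 ratios have Arntl in the denominator and so share its values. Arntl lay lower in every mdx library (log2 fold change −0.60), so a gene with equal levels in both genotypes also has a higher mean ratio in mdx. The share of all tested genes with such ratios was not computed. These counts therefore cannot be read as particular to the clock genes. For Dbp, Cry1, Cry2 and Nr1d1 the two-sided exact permutation test over the 5 libraries gave p = 0.1, the smallest that 3 against 2 libraries allow, and 0.225 after adjustment over the 9 ratios. The differences in log2 ratio were 3.19 for Dbp, 2.37 for Cry1, 1.37 for Cry2 and 1.32 for Nr1d1. For Nr1d1 the difference stayed between 1.24 and 1.47 whichever library was left out.

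**Figure D3:**
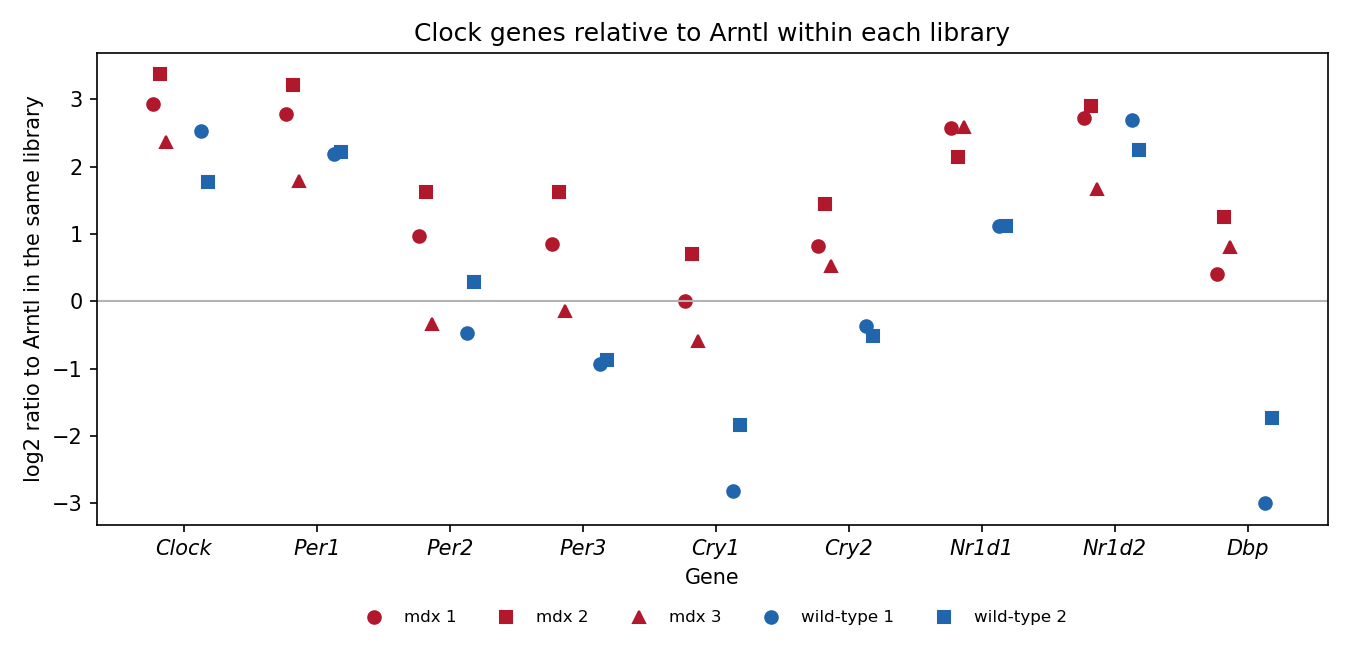
Log2 ratio of each clock gene to Arntl in the same library, with 2 added to both counts, for the 3 mdx libraries (red) and the 2 wild-type libraries (blue). The Dbp ratio lies above 0 in all mdx libraries and at −3.00 and −1.74 in wild type, and the Nr1d1 ratio forms separate groups between 2.14 and 2.59 in mdx and at 1.12 and 1.11 in wild type.

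Among the mdx libraries, mdx 3 held the lowest value of Per1, Per2, Per3, Cry1, Clock and Nr1d2 and the highest of Arntl, Nr1d1 and Dbp. Mdx 2 held the highest value of Per2, Per3 and Cry1 and the lowest of Arntl and Nr1d1. Over the 5 libraries, the members with the most alike profiles, by root mean square distance between log2 values centred on each gene's mean, were Per1 and Nr1d2 (0.27) and Per3 and Cry2 (0.33), and the least alike were Nr1d2 and Dbp (1.73). Among 9739 tested genes with a mean of at least 100, the profile nearest to Dbp was that of Eepd1 (distance 0.15), at 140, 152 and 270 in mdx and 20 and 50 in wild type, followed by Rnf126 (0.20). For Cry1 the nearest were Tle1 (0.08), at 821, 885 and 776 in mdx and 159 and 323 in wild type, and Myo5a (0.09).

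The wider clock machinery changed in both directions. Outside the set, 55 genes were tested from lists of other clock transcription factors, enzymes and partners of clock proteins, and rhythmic output genes. Of these, 10 rose, 11 fell and 34 did not pass, so 38.2% were called, against 24.9% of all genes. The lists were chosen with earlier results of these data known, so the difference between these shares is no evidence about the clock machinery. The median log2 fold change of the 55 genes was −0.13. Among 11 other clock transcription factors, 1 rose and 3 fell, with a median of −0.58, and 0 were higher and 5 lower with length and GC correction.

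Rora and Rorb, which encode activators of Arntl at the element that REV-ERB proteins share, fell. Rora was at 1877, 1103 and 1448 in mdx and at 3353 and 2828 in wild type (log2 fold change −1.09, limma adjusted p = 0.0132). The Rora call was lost without mdx 2 (log2 −0.90) and without mdx 3 (log2 −1.10). It was also lost without the variance trend (limma adjusted p = 0.125) and with the replicate block (limma adjusted p = 0.0508). Rorb was listed at 0 in all 3 mdx libraries and at 69 and 91 in wild type (limma adjusted p = 0.0154). The Rorb call was lost with the replicate block (limma adjusted p = 0.0593). With wild-type 1 or wild-type 2 left out, Rorb did not meet the filter and was not tested. Nfil3, encoding a repressor that competes with DBP for the D-box, fell to 592 ± 127 in mdx, against 1718 ± 160 in wild type (log2 −1.55, limma adjusted p = 0.00309). Nfil3 and Dbp differed in opposite directions between the genotypes, and whether these differences are linked was not tested. Bhlhe41, encoding the E-box repressor DEC2, rose 2.73-fold, at 361, 548 and 499 in mdx and 119 and 237 in wild type (limma adjusted p = 0.0370). The log2 fold change of Bhlhe41 was 0.96 without wild-type 1. The Bhlhe41 call was lost without mdx 1, 2 or 3 (log2 1.63, 1.33 and 1.39) and with length and GC correction (log2 0.87). It was also lost without the variance trend (limma adjusted p = 0.104) and with the replicate block (limma adjusted p = 0.109). Tef and Hlf, the relatives of Dbp in the same protein family and chosen here after their values were seen, did not pass: Tef was at 1361, 1207 and 1436 in mdx and 1717 and 1282 in wild type, and Hlf at 59, 25 and 69 in mdx and 10 and 63 in wild type. Npas2, the stand-in for Clock in some tissues and also chosen after its values were seen, was at 196, 105 and 197 in mdx and 280 and 783 in wild type, without overlap, and did not pass (limma adjusted p = 0.0694).

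Of 26 enzymes and partners of clock proteins, 6 rose, 3 fell and 17 did not pass (median log2 fold change 0.15). After length and GC correction 1 was higher and 4 were lower, and without the variance trend 1 was higher and 0 were lower. Csnk1d, encoding a casein kinase that marks PERIOD proteins for destruction, fell 2.06-fold to 2038 ± 171 in mdx, against 4239 ± 817 in wild type (limma adjusted p = 0.00523). Gsk3b, encoding a kinase that acts on several clock proteins, rose 2.19-fold (limma adjusted p = 0.00535). Crebbp and Ep300, which encode histone acetyltransferases recruited by CLOCK and ARNTL, rose 3.08-fold and 1.67-fold (limma adjusted p = 0.000238 and 0.0149). Of these risers and Ncor1, Crebbp was still called with length and GC correction (log2 0.57, beside 1.62 as reported), while the log2 fold change became 0.46 for Gsk3b, 0.09 for Ncor1 and −0.21 for Ep300, which was also lost without mdx 1 (log2 0.70) or mdx 2 (log2 0.74). Ncor1, encoding the corepressor that REV-ERB proteins bring to Arntl, rose 1.84-fold to 6118 ± 587 in mdx, against 3321 ± 21.2 in wild type (limma adjusted p = 0.00524). Usp2, a rhythmic deubiquitinase gene, fell to 235 ± 85.7 in mdx, against 910 ± 119 in wild type, and Nono, encoding an RNA-binding partner of PERIOD proteins, fell 2.09-fold.

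Of 24 tested rhythmic output genes shared by many tissues, 4 rose, 7 fell and 13 did not pass (median log2 fold change −0.14). After length and GC correction 1 was higher and 8 were lower, and without the variance trend 1 was higher and 4 were lower. Coq10b and Pnp, both rhythmic in many tissues, fell to 300 ± 96.1 and 489 ± 146 in mdx, against 2005 ± 356 and 2406 ± 85.6 in wild type. Rbm3, encoding a cold-induced RNA-binding protein, fell 3.22-fold, and Klf13 rose 2.04-fold. Fmo2, a monooxygenase gene, was at 820, 731 and 599 in mdx and listed at 0 throughout wild type, and Marveld1 rose 4.30-fold. The log2 fold change of Klf13 after the correction was −0.10, and Marveld1 did not pass with it (log2 1.52) or without mdx 1, 2 or 3 (log2 2.27, 2.13 and 1.92). In the same mdx libraries endothelial, macrophage and fibro-adipogenic markers were higher, as given above, and their part in these values was not tested.

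Per1 also responds to hormone and stress signals, so genes induced by glucocorticoids and immediate-early genes are given beside it. These lists too were chosen with earlier results of these data known, so their shares are a description only. Of 14 glucocorticoid-induced genes, 8 fell and 3 rose (median log2 fold change −1.13), where 10.3% of all tested genes fell and 14.6% rose. Without the variance trend 2 fell, and without mdx 3, 5 fell and 1 rose. Tsc22d3, encoding the glucocorticoid-induced leucine zipper, fell to 1297 ± 719 in mdx, against 4804 ± 395 in wild type (limma adjusted p = 0.00506), a call lost without mdx 3 (log2 −1.92, beside −2.02), and Errfi1 fell 3.75-fold. Cdkn1c, encoding the cell cycle inhibitor p57, was at 1402 ± 287 in mdx and 71.5 ± 44.5 in wild type. Of 23 immediate-early genes, 11 fell and 3 rose (median −0.66), among them Atf3, which fell 3.45-fold, and Egr3, which rose 2.48-fold. After the correction 15 immediate-early genes fell and 1 rose, and without the variance trend 5 fell and 1 rose. Without wild-type 1, 5 rose, and without mdx 1, 1 rose. Egr3 did not pass after the correction (log2 0.91) or without mdx 1 (log2 1.17) or mdx 2 (log2 1.34). The log2 fold change of Per1 was −0.22 beside these medians, and −1.51 with length and GC correction. Whether Per1 differed from these lists was not tested. Among 5 tested genes linked to the muscle clock, Myod1, a known target of CLOCK and ARNTL, rose 3.26-fold and Pdk4 fell 2.22-fold, while the other 3 did not pass. Myod1 did not pass with length and GC correction (log2 0.97, beside 1.71 as reported) or without mdx 3 (log2 1.63).

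**Figure D4:**
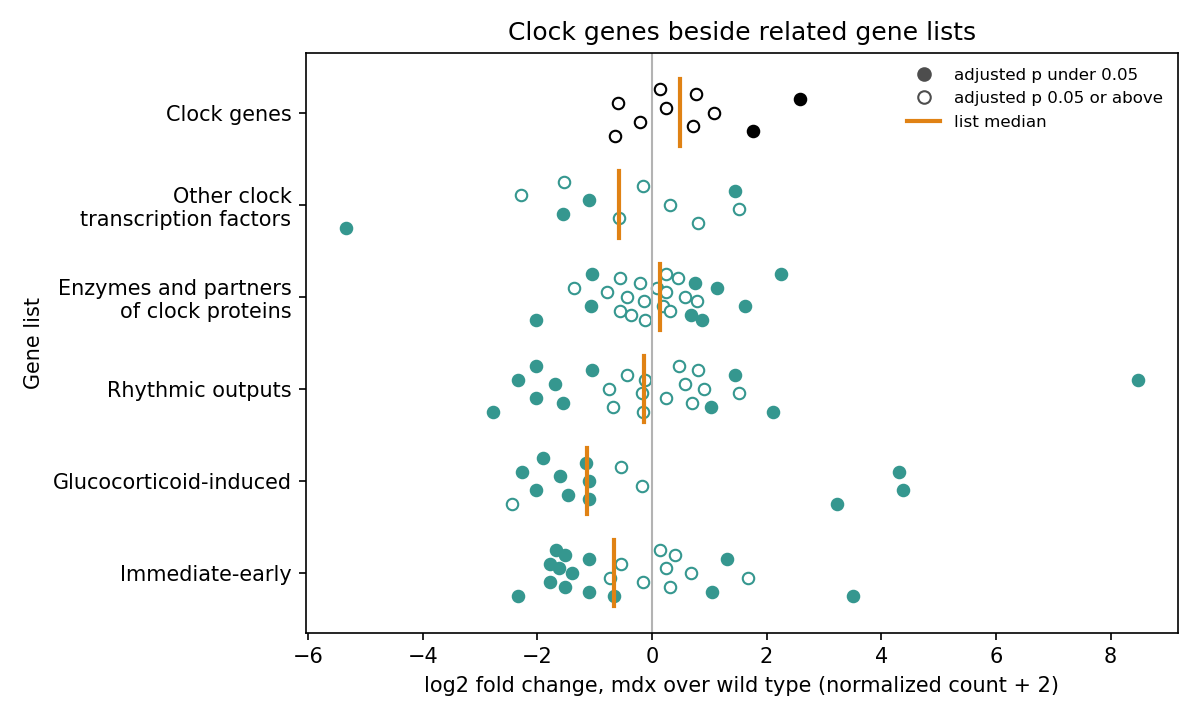
Log2 fold changes, mdx over wild type, of the clock genes (black) and of related gene lists (green), with orange bars for list medians and filled points for an adjusted p under 0.05. The clock genes have a median of 0.48, while the medians of the glucocorticoid-induced (−1.13) and immediate-early lists (−0.66) lie below 0. All values are without length and GC correction, under which every clock gene was lower than shown.

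**Figure D5:**
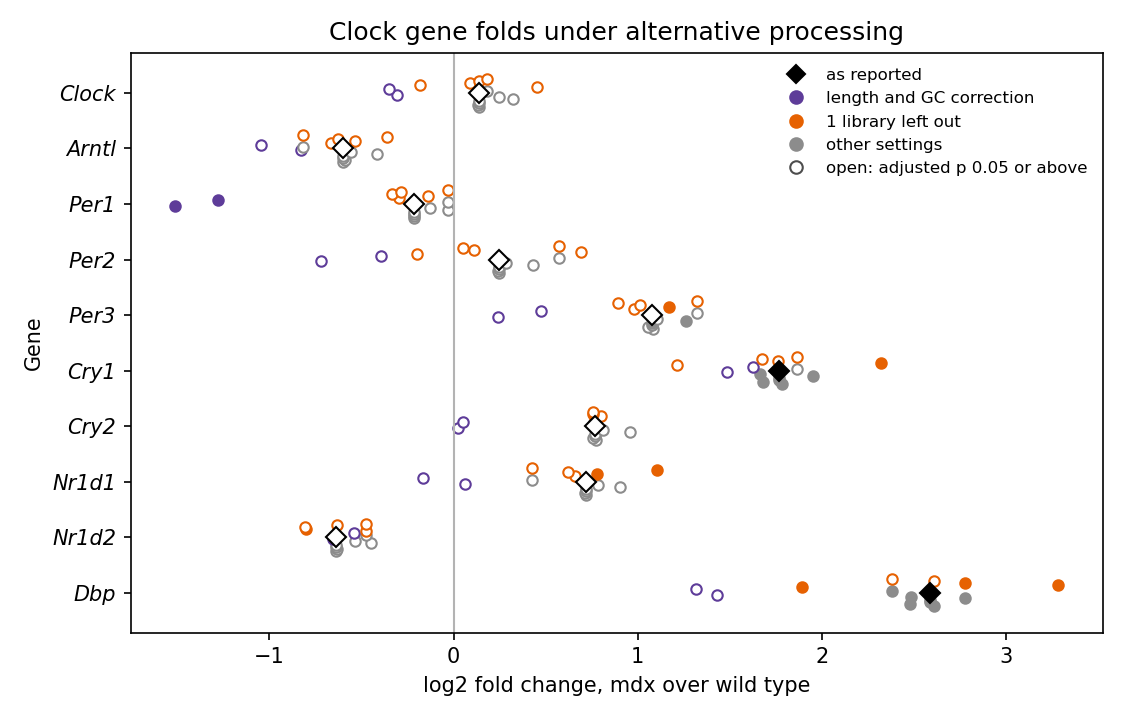
Log2 fold change of each clock gene as reported (diamonds) and under 15 alternative settings, with filled symbols for an adjusted p under 0.05. Correction for length and GC content (purple) gave lower values than reported for all members but Nr1d2, whose values were −0.66 and −0.54 beside −0.64, and called Per1 lower, while Dbp ranged between 1.31 and 3.28.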

How the data were processed

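RNA-seq of sorted satellite cells from mdx mice (3 libraries) and wild-type mice (2 libraries) was read from 1 deposited table of 22683 genes with Ensembl identifiers and mm10 coordinates. The submitters' processing notes name STAR 2.6.1d, featureCounts 1.6.3 and DESeq2 1.18.1. The deposited values carry the unit score here: normalized counts that the authors scaled and rounded, which is read from the values, since 6 of the whole numbers from 1 to 30 never occur in mdx 1. A count model was therefore not used. The sources used here give neither the strand setting nor the treatment of duplicate or multiply mapped reads.

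Log2(value + 2) of genes with at least 10 in at least 2 libraries (18199 genes) entered limma 3.58.1 (R 4.3.3) with genotype as the only term and variance moderation with trend and robust estimation. P-values are two-sided. Fold changes are on the log2(value + 2) scale, which understates those of low genes. Transcript length, GC content and exon length came from GENCODE M21, which held 22649 of the identifiers and placed all 10 members at the deposited coordinates. On 5 simulated tables of mdx over wild type, with 200 genes changed of 19844 tested on average, 42.7% of genes changed 4-fold and 3.28% of genes changed 2-fold were called, and 7.37% of calls were false. In the deposited data 24.9% of genes were called, so these rates need not carry over to it. The members and the gene lists were chosen with earlier results of these data known. All 10 members are named, and in each list up to 4 called genes with the smallest p in each direction could be named. Alternatives covered pseudocount, filter, scaling, length and GC content, variance model, replicate block and each library left out.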

Additional observations from a re-analysis of the deposited data

How the results depend on the processing

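Over the 15 alternatives, 123 of 150 log2 fold changes of the members kept direction and side of the threshold. In the genes tested as a whole, 2659 were higher and 1868 lower in mdx. With length and GC correction there were 1707 higher and 2149 lower, so that 44.3% of calls were higher in mdx, beside 58.7% as reported; with equal library totals the share was 67.6%. Without variance trend and robust estimation 1150 were lower. Leaving out 1 library gave 1450 to 3308 higher and 1112 to 1853 lower. Median log2 fold changes of all genes ran from −0.09 with length and GC correction to 0.31 with equal library totals.

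Clock genes called higher numbered 2 as reported, 0 with length and GC correction, where 1 (Per1) was lower, and 1 without variance trend. Leaving out 1 library gave 0 to 4 clock genes higher and 0 to 1 lower. Called in addition were Per3 with the filter of 50 and with equal totals, and Per3, Nr1d1 and Nr1d2 without wild-type 2, and Nr1d1 without mdx 2. The cause of these changes was not tested. Directions turned for Per2 (−0.72 with length and GC correction, between −0.20 and 0.69 with 1 library left out), for Clock (−0.31 with length and GC correction, between −0.18 and 0.45 with 1 library left out), and, for the ratio of Nr1d2 to Arntl, to 0.19 without wild-type 1 and 0.34 without mdx 3, beside −0.27 without mdx 2.

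Replicate numbers 1 and 2 occur in both mdx and wild type, but same-numbered libraries did not deviate together (correlations of −0.014 and −0.017 across genes). Number 3 occurs only in mdx, so with the replicate block mdx 3 added nothing to the genotype estimate. Log2 fold changes with the block alone equalled those without mdx 3, such as 2.38 for Dbp and 1.87 for Cry1. With the replicate block, 1163 genes were higher and 860 lower and 1 clock gene (Dbp, limma adjusted p = 0.0420) was higher. With the replicate block and the length and GC correction together, 1025 genes were higher, 0 clock genes higher and 1 lower (Per1, log2 −1.28), and Per2 (−0.39), Clock (−0.35) and Nr1d1 (−0.17) turned direction. Cry1 did not pass with the replicate block (log2 1.87, limma adjusted p = 0.0986). In the related lists, 46 of 180 counts moved by over 1.5 times. Genes called higher after length and GC correction numbered 1 among enzymes and partners (6 as reported), 1 among output genes (4), 0 among other transcription factors (1), 0 among muscle genes (1) and 1 among immediate-early genes (3), while the counts of lower genes held or rose. Direction turned for Ep300 (−0.21, and −0.18 with the replicate block as well) and Klf13 (−0.10, and −0.066 with the block as well). With the replicate block alone, 4 glucocorticoid-induced genes were lower, 1 output gene was higher, and Myod1 and Pdk4 were not called. Groups of 2 and 3 libraries are too small for a test of outlying libraries.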
